A study of Mus musculus with 103 samples.

Results

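Far intergenic LXR peaks without SREBP1 are places where the liver X receptors (LXR) were bound in mouse macrophages, far from the start of any gene and sharing no base with an SREBP1 peak. They were chosen by 3 criteria on the deposited ChIP-seq lists: the LXR peak shared no base with an SREBP1 peak, its centre lay outside every transcript of the deposited RNA table, and its centre lay more than 50 kb from the nearest transcript start. Of 40660 LXR peaks, 4310 met them, which is 10.6% (95% exact interval 10.3 to 10.9). They are 11.7% of the 36842 LXR peaks that shared no base with an SREBP1 peak. Because LXR peak calls, SREBP1 peak calls and positions chose the members, the heights and positions below are descriptions with no test.

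The cells were macrophages that collect in the peritoneum after thioglycollate injection, from male C57BL/6 mice of 6 to 8 weeks, held overnight in 0.5% serum before treatment. The peak lists came from cells given the synthetic LXR agonist GW3965 (1 µM): 1 list for LXR and 1 for SREBP1, with 13984 peaks. Poly(A) RNA was measured in 6 libraries, 1 a condition: 1, 6 or 12 h of KLA (Kdo2-lipid A, 100 ng/ml, a TLR4 agonist) with 1 untreated library for these times, and a 24 h pair of KLA-treated and untreated cells. No RNA after GW3965 is analysed here, so the RNA values show how genes beside these peaks behaved under KLA and not under the LXR agonist. The LXR sample is titled as GW3965 while its treatment field reads as a control. In its header the GW3965 time is 5 h and the input is one from 24 h KLA cells, whereas the SREBP1 label gives 18 h of GW3965, and the SREBP1 list was called from a combined set of tags against an input from untreated cells.

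LXRα and LXRβ are nuclear receptors that sense oxidised cholesterol derivatives. They bind DNA together with RXR and, in macrophages, switch on cholesterol efflux and fatty acid synthesis genes. They are also known to restrain inflammatory genes. SREBP1 is a membrane-bound transcription factor that is cleaved to drive fatty acid synthesis, and its gene is itself an LXR target, so both factors act on an overlapping lipid programme. Binding sites far from genes are commonly enhancers, and macrophage enhancers are known to be set up by lineage factors such as PU.1.

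The RNA libraries were shallow, with 2205187 to 2674826 recovered reads, of which 1883937 to 2309724 lay in genes. All 7 macrophage markers of the list used reached 1 RPKM, and their summed level was 6504 to 11242 RPKM. T cell markers summed to at most 1.02 RPKM and mast cell markers to at most 1.09 RPKM. B cell markers summed to 3.64 to 6.38 RPKM. The neutrophil marker Mpo was at 0 in all 6 libraries, while the 4 neutrophil markers in the table summed to between 39.6 and 118 RPKM, highest after 24 h of KLA. Just 1 of those 4 reached 1 RPKM in any library, so that sum is nearly all from 1 gene. Fibroblast markers summed to 84.8 to 176 RPKM, also highest after 24 h of KLA, and the part of other cells in the values below was not tested.

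The members were spread over all 20 named chromosomes other than Y, unevenly. Chromosome 13 held 406 members, which were 20.7% of its LXR peaks, chromosome 18 held 219 (18.1%) and chromosome 10 held 404 (17.3%). On chromosomes 7 and 11 the members were 4.19% and 4.41% of the LXR peaks. Another 8 members lay on unplaced sequences. The median member was 95.7 kb from the nearest start, with quartiles of 67.3 and 154 kb and a maximum of 1472 kb. Between 50 and 100 kb lay 2275 members (52.8%), between 100 and 200 kb 1369, between 200 and 500 kb 576, and beyond 500 kb 90. Upstream of the nearest start lay 2358 members (54.7%) and downstream 1952. The upstream share was 58.8% at 50 to 100 kb and 32.2% beyond 500 kb. Just inside the distance threshold were members 50004 bases from Mis18a and 50006 from Ednrb, and just outside it were peaks 49998 bases from Sik1, 49994 from Tob1 and 49989 from Fas. Within 5 kb of a transcript lay 116 members, since the distance was taken to starts and not to ends.

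The members were as high as other LXR peaks that lacked SREBP1. Their normalised tag count, the height scaled by the authors to 10000000 tags, had a median of 28.0, with quartiles of 18.7 and 48.0 and a range of 9.30 to 519. The median was 28.0 for intergenic peaks within 50 kb of a start, 28.0 for peaks inside genes and 24.0 for promoter peaks, all without SREBP1. The 327 far peaks that did share a base with SREBP1 had a median of 50.7. Shared peaks of the other classes were also higher than those without SREBP1. Their medians were 44.0 for near intergenic, 41.3 for intragenic and 25.3 for promoter peaks. In raw tags the median member had 21, so a typical member rests on few reads, and 80 members (1.86%) had 150 or more. Over the surrounding bases the median enrichment was 18.5-fold for members and 18.4-fold for the far peaks shared with SREBP1. Without SREBP1 it was 15.6-fold for intergenic peaks nearer to genes, 15.4-fold inside genes and 13.6-fold at promoters. None of the 100 highest LXR peaks was a member. Among the highest 1000 there were 103 members (10.3%), close to their share of the whole list.

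**Figure D1:**
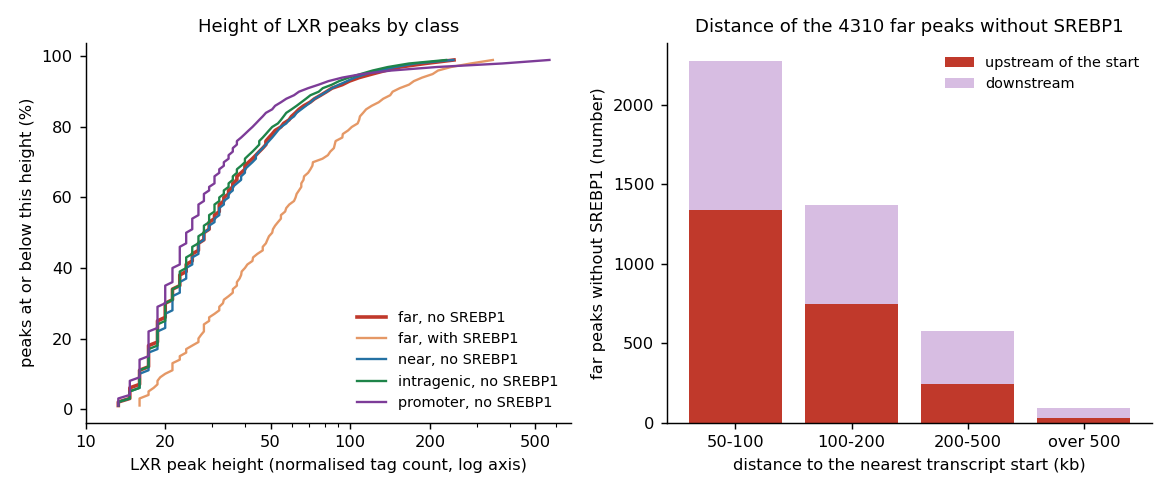
Left, the cumulative share of LXR peaks (%) by height (normalised tag count, log axis) for 5 classes of peak; right, the number of far LXR peaks without SREBP1 by distance (kb) to the nearest transcript start, split into upstream and downstream. The curve of the far peaks without SREBP1 (median 28.0) lies with those of near and intragenic peaks and left of the far peaks with SREBP1 (median 50.7), and 2275 of the 4310 lie at 50 to 100 kb.

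The highest members lay beside genes of several kinds. The highest of all, at chr8:124668781-124668965 (mm9), ranked 128 in the LXR list, with 389 tags and a normalised tag count of 519, and lay 137 kb upstream of Zfpm1, which encodes a cofactor of GATA factors. Next came a peak of 479 near 9130015L21Rik on chromosome 2 and one of 476 lying 138 kb upstream of Tbl1xr1, whose product is a subunit of nuclear receptor corepressor complexes. Peaks of 443 and 440 lay 62.8 kb upstream of Dusp4, a MAP kinase phosphatase, and 163 kb upstream of Zeb2, a transcription factor. A peak of 420 lay 73.9 kb downstream of the start of Socs6, a suppressor of cytokine signalling family member, and one of 407 lay 118 kb upstream of Enpp6. Peaks of 383 each lay 52.7 kb from the start of Mylip and 73.7 kb from the start of Lpl. The last of the 10 highest, at 373, was 65.5 kb upstream of the nearest start of Iqgap2 and 1.98 kb from the nearest transcript. In the input these 10 peaks had at most 2.70 tags.

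An SREBP1 peak lay near a smaller share of the members than of other LXR peaks. An SREBP1 centre lay within 10 kb of 22.0% of members (95% exact interval 20.7 to 23.2), against 38.9% (37.9 to 39.8) of near intergenic, 36.4% of intragenic and 56.6% of promoter LXR peaks that also shared no base with one. Within 50 kb the shares were 51.7% for members, 80.8% for near intergenic, 75.7% for intragenic and 83.0% for promoter peaks. The median distance from a member to the nearest SREBP1 centre was 47.0 kb, against 15.7 kb for near intergenic and 18.2 kb for intragenic peaks. These intervals, like those of the other peak shares, cover counting error only and treat peaks as independent. Neighbouring peaks can have the same SREBP1 centre near them, so the intervals are too narrow. The classes differ in their distance to genes by construction, and its part in these shares was not tested. At the edge of the rule, a member near Pabpc2 had an SREBP1 centre at 190 bases and a peak near Cd47 that did share a base had one at 189 bases.

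**Figure D2:**
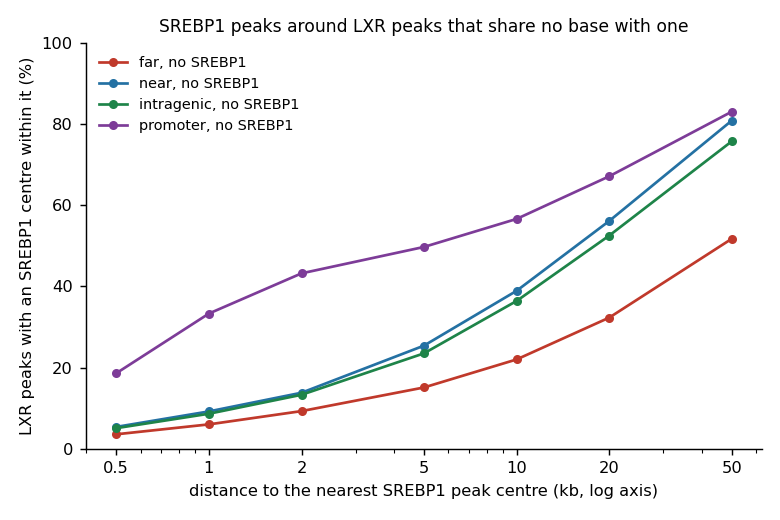
The share of LXR peaks (%) with an SREBP1 peak centre within a given distance (kb, log axis), for 4 classes of LXR peak that share no base with an SREBP1 peak. The far peaks lie lowest at every distance drawn, at 22.0% within 10 kb against 38.9% for near intergenic peaks.

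Sharing with SREBP1 went with LXR height among far peaks. Of all 4637 far LXR peaks, members and shared together, 7.05% shared a base with an SREBP1 peak. The share was 8.30% among near intergenic, 7.31% among intragenic and 18.0% among promoter LXR peaks. With the far peaks cut at 15, 21 and 35 LXR tags into 4 parts, low to high, the shared part of the far peaks was 2.55%, 4.98%, 6.41% and 13.9%. At 150 tags or more it was 18.4%, 18 of 98 peaks (95% exact interval 11.3 to 27.5). This was not particular to far peaks. At 150 tags or more the shared part was 20.3% of near intergenic, 14.0% of intragenic and 22.8% of promoter LXR peaks, each above the share of its whole class. Per the file headers, 1.75% of the SREBP1 tags fell in peaks, against 17.85% of the LXR tags. The part of peak height and of SREBP1 enrichment in the members' lack of SREBP1 was not tested.

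Many members lay close to one another. The median distance to the nearest other member was 6.64 kb, and to the nearest other LXR peak of any class 5.61 kb. These distances are not given for other classes of LXR peak, so closeness is not shown to be particular to the members. Joined wherever neighbours were within 50 kb, the members formed 1547 runs, and 514 runs of 3 or more held 2982 members (69.2%). Single members numbered 738 (17.1%) and had a median normalised tag count of 22.7, against 32.0 for members in runs of 10 or more. An SREBP1 centre lay within 10 kb of 9.76% of single members, of 15.3% in pairs, of 21.6% in runs of 3 to 4, of 24.8% in runs of 5 to 9 and of 32.7% in runs of 10 or more. Long runs cover more bases than short ones, and the parts of length and height in this order were not tested.

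The largest run, with 26 members over 231 kb at chr8:129183965-129414842, lay between Irf2bp2 and Tomm20. Irf2bp2 encodes a corepressor that binds IRF2 and was nearest to 10 of them, and Tomm20 encodes an import receptor of the outer mitochondrial membrane and was nearest to 16. Its members summed to a normalised tag count of 2188, ranged from 13.3 to 368 and had a median of 60.6, against 28.0 over all members. The same span held 7 far LXR peaks shared with SREBP1 and 12 SREBP1 peaks. The second run had 24 members over 289 kb upstream of Prdm1, which encodes the repressor Blimp-1, with 22 nearest to Prdm1 and 2 to Prep. The third had 23 members over 186 kb, all upstream of Marcks, an actin- and membrane-binding substrate of protein kinase C. Runs of 23 members each also lay beside Gm17746 and between Ly86, which encodes a partner of the receptor RP105, and Rreb1, a zinc finger factor. In the runs of Prdm1 and Marcks just 1 far peak each was shared with SREBP1.

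**Figure D3:**
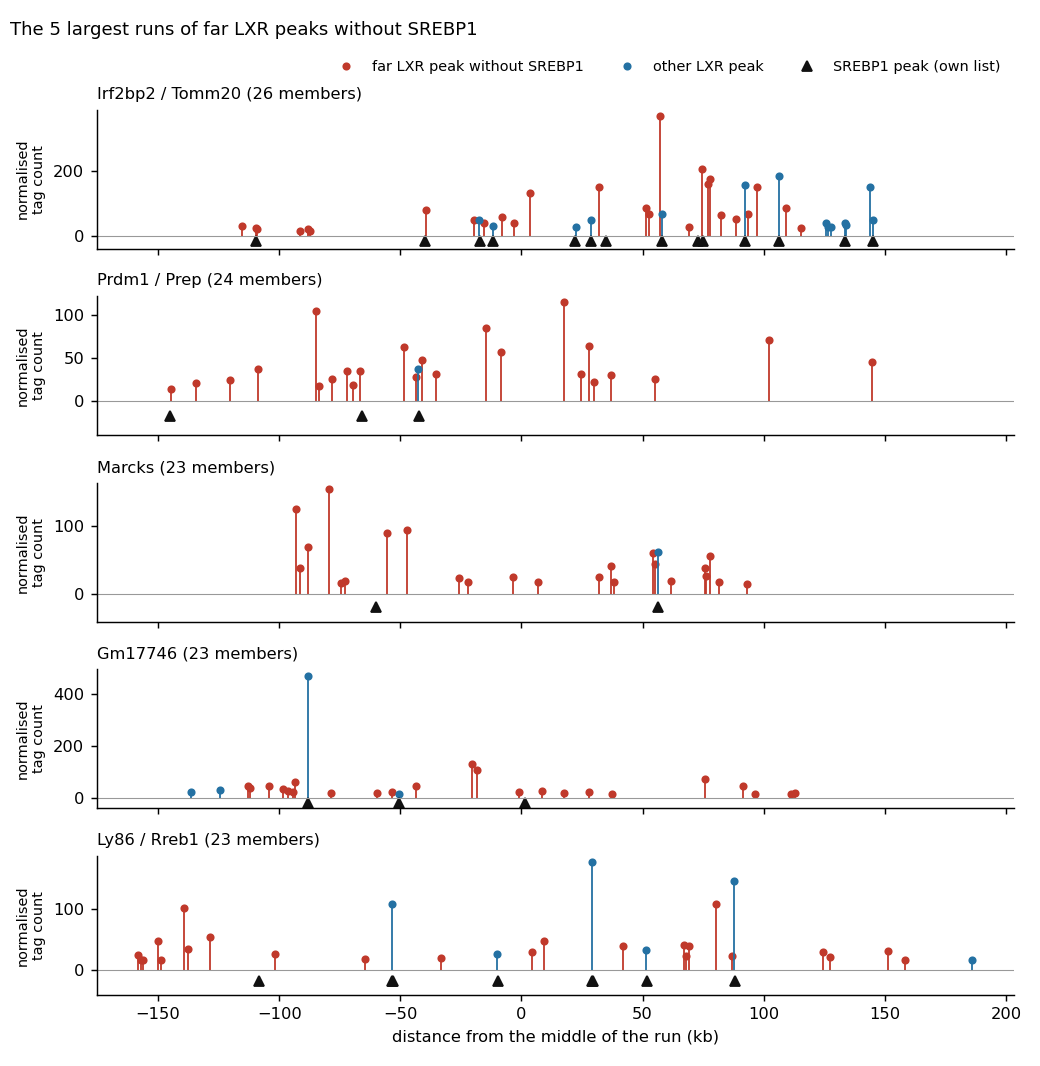
LXR peaks of the 5 runs with the most members, by distance (kb) from the middle of each run, with the normalised tag count as height; red marks far LXR peaks without SREBP1, blue marks other LXR peaks, and triangles mark SREBP1 peaks of their own list, without height. The Irf2bp2 and Tomm20 run holds 12 SREBP1 peaks within its span and the Marcks run holds 2.

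The 4310 members had 1438 nearest genes. Of these, 617 had 1 member and 70 had 10 or more. A gene counted as expressed if it had at least 1 RPKM in 2 of the 6 libraries, and 55.8% of the nearest genes (803) did. Not every gene has such intergenic space: 6230 of the 24014 genes were nearest to at least 1 base that met the distance rule, and these are called eligible below. Among eligible genes with no member, 31.2% were expressed, against 36.9% of all eligible genes and 44.2% of all genes. The share was 64.4% for genes nearest to a near intergenic LXR peak without SREBP1. For genes nearest to a far peak shared with SREBP1 it was 64.0%. The expressed share was 50.4% for genes with 1 member, 59.3% with 2 to 4, 60.1% with 5 to 9 and 64.3% with 10 or more. Among nearest genes expressed, 51.3% also had an LXR peak within 1 kb of a start, against 49.2% of eligible expressed genes with no member and 53.8% of all expressed genes. With 10 or more members it was 66.7%, 30 of 45 genes.

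Among genes with more members, a larger share was at least 2-fold higher after 1 h of KLA. With a call meaning at least 2-fold on the log2(RPKM + 1) scale, 61 of the 803 nearest genes (7.60%) were called higher at 1 h, against 3.65% of all 10605 genes tested and 4.57% of the 2300 eligible genes tested. The share was 24.4% with 10 or more members (11 of 45 genes), 10.1% with 5 to 9, 7.93% with 2 to 4, 3.86% with 1 member and 2.94% for eligible genes with none. Called lower at 1 h were 19 nearest genes (2.37%), against 4.09% of all genes and 2.78% of eligible genes. The share called lower was 4.44% with 10 or more members (2 of 45 genes) and 5.04% with 5 to 9. It was 3.05% with 2 to 4, 0.322% with 1 member and 3.01% for eligible genes with none. Genes whose nearest member was at 50 to 100 kb were called higher in 8.85% of cases. Those whose nearest member was at 100 to 200 kb were called higher in 2.48%, and beyond 200 kb 0 of 27 were. Genes were also split by the tags of the highest member: under 22, 22 to 35, 36 to under 150, and 150 or more. In this order the share called lower was 1.54%, 2.09%, 2.25% and 9.52% (4 of 42 genes). The share called higher was 2.70%, 8.90%, 10.3% and 11.9% (5 of 42 genes). For expressed genes nearest to a far peak shared with SREBP1 the share was 11.7% (19 of 162), and for those nearest to a near intergenic peak without it 6.72% (217 of 3230), and the gene sets overlap. With 10 or more near intergenic peaks there were just 10 expressed genes, of which 1 was higher and 2 were lower at 1 h. The splits by nearest distance and by highest tags are not separate from the number of members. A gene with more members is likelier to have a near one and a high one. The parts of these 3 traits, and of the intergenic space around each gene, were not tested. Each library is 1 sample, so no spread between replicates stands behind these shares, and genes that share a run or a response are not independent of each other.

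At later times the shares of nearest genes called were above those of eligible genes by 2 to 4 percentage points in both directions. At 6 h 129 nearest genes (16.1%) were called higher, against 9.35% of all and 12.5% of eligible genes, and 182 (22.7%) were called lower, level with the 22.4% of all genes and against 20.0% of eligible genes. At 12 h 97 (12.1%) were higher, against 8.88% and 9.83%, and 165 (20.5%) were lower, against 16.3% and 18.3%. At 24 h 106 (13.2%) were higher, against 9.98% and 10.3%, and 135 (16.8%) were lower, against 10.6% and 13.6%. Expressed genes nearest to a near intergenic peak without SREBP1 had shares of the same order: 13.9% higher and 25.2% lower at 6 h, 12.7% and 19.6% at 12 h, and 13.9% and 15.1% at 24 h. At 24 h the share called lower was 28.9% with 10 or more members (13 of 45) and 28.6% with 5 to 9. It was 12.5% with 1 member and 11.8% for eligible genes with none. With 10 or more near intergenic peaks without SREBP1 it was 40.0%, 4 of just 10 expressed genes. For expressed genes nearest to a far peak shared with SREBP1 it was 21.6% (35 of 162). Over all genes tested, the median log2 ratio at 1, 6, 12 and 24 h was -0.16, -0.46, -0.32 and -0.09. Shifted by these medians, 189 nearest genes (23.5%, against 14.2% of all genes) were higher and 103 (12.8%, against 9.83%) lower at 6 h, so that 64.7% of their calls were higher with the shift and 41.5% without it. At 12 h the shift gave 130 higher (16.2%, against 12.2%) and 104 lower (13.0%, against 8.73%), and 55.6% of the calls were higher with it and 37.0% without. At 1 h it gave 68 higher (8.47%, against 4.33%) and 10 lower (1.25%, against 2.49%), and 87.2% of the calls were higher with it and 76.2% without. The shift moves the calls of all genes in the same direction.

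**Figure D4:**
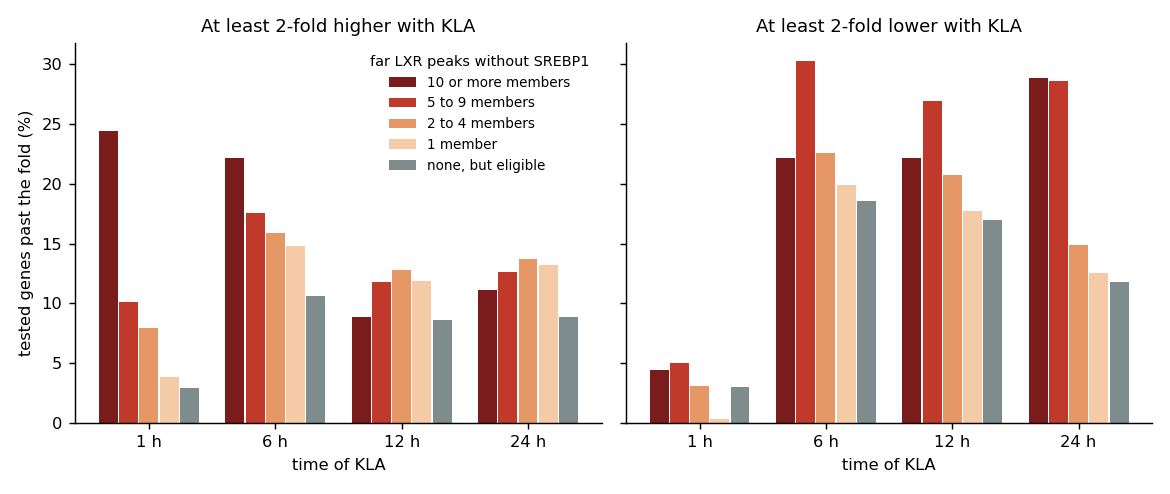
The share of expressed genes (%) at least 2-fold higher (left) or lower (right) after 1, 6, 12 and 24 h of KLA, by the number of far LXR peaks without SREBP1 nearest to the gene; grey bars are eligible genes with none. At 1 h the higher share is 24.4% of 45 genes with 10 or more members and 2.94% of genes with none, and at 24 h the lower share is 28.9% and 11.8%.

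The 11 genes with 10 or more members that were called higher at 1 h were Nfkbiz, Mir5130, Prdm1, Klf6, Klf7, Plk2, Marcks, Ccdc71l, Thbs1, Cited2 and Bcor, named after their values were seen because they make up that count. Nfkbiz, which encodes an inducible cofactor of NF-κB, had 13 members, all downstream at 64.6 to 267 kb, the highest at 132. Nfkbiz RNA was 2.20 RPKM in untreated cells and 538, 59.9 and 21.7 RPKM after 1, 6 and 12 h of KLA, and 28.9 RPKM after 24 h of KLA against 2.09 RPKM in the untreated 24 h library. At 1 h that is 245-fold higher (95% exact interval 153 to 421, counting error only), and every KLA library was above both untreated ones. Prdm1, with 22 members upstream at 71.0 to 271 kb, had 4.06 RPKM untreated and 42.2, 9.02 and 5.17 RPKM at 1, 6 and 12 h, and 5.89 RPKM after 24 h of KLA against 3.31 RPKM untreated. It peaked at 1 h, 10.4-fold higher (7.69 to 14.4).

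Klf6, a zinc finger transcription factor with 11 members, had 79.9 RPKM untreated and 343, 197 and 130 RPKM at 1, 6 and 12 h, and 184 RPKM after 24 h of KLA against 130 RPKM untreated. Plk2, a kinase of the polo-like family with 19 members at 128 to 403 kb, had 137 RPKM untreated and 505, 293 and 239 RPKM at 1, 6 and 12 h, and 190 RPKM after 24 h of KLA against 149 RPKM untreated. Both were highest at 1 h, and their 2 untreated libraries differed less than that. Marcks had 52.1 RPKM untreated and 157, 126 and 49.4 RPKM at 1, 6 and 12 h, and 45.7 RPKM after 24 h of KLA against 74.5 RPKM untreated, so it was higher early and not late. Thbs1, which encodes the matrix glycoprotein thrombospondin 1, had 6.96 RPKM untreated and 20.3, 51.2 and 81.1 RPKM at 1, 6 and 12 h, and 45.2 RPKM after 24 h of KLA against 7.93 RPKM untreated. Mir5130 rests on 2 reads at 1 h and 0 in its untreated library, with 5 reads in the other untreated library, too few to give it a direction. Bcor and Cited2 fell below 2-fold, at log2 0.81 and 0.57, against the other untreated library. Klf7 rests on 23 reads at 1 h against 3 untreated. Against the other untreated library 9 of the 45 genes were called higher at 1 h, and these include Gm13498, on 12 reads against 1.

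Genes with 10 or more members also held strongly lower ones. Cxcr4, the receptor for the chemokine CXCL12, had 10 members upstream at 50.2 to 233 kb, the highest at 189. Its RNA was 124 RPKM untreated and 50.6, 2.79 and 6.99 RPKM at 1, 6 and 12 h, and 5.98 RPKM after 24 h of KLA against 89.5 RPKM untreated. At 6 h it was 44.5-fold lower (25.2 to 86.7), resting on 12 reads against 496. Gcnt1, an enzyme that branches O-glycans, also with 10 members, had 13.5 RPKM untreated and 7.72, 0.744 and 0.631 RPKM at 1, 6 and 12 h, and 1.32 RPKM after 24 h of KLA against 17.5 RPKM untreated. Jun, an AP-1 subunit with 16 members, had 73.9 RPKM untreated and 77.8, 13.4 and 18.1 RPKM at 1, 6 and 12 h, and 22.5 RPKM after 24 h of KLA against 53.3 RPKM untreated. All 3 were below both untreated libraries at 6, 12 and 24 h. The other 10 genes lower at 24 h were Mir5130, Cited2, Cpeb2, Kcnj2, Atp2b1, Sipa1l2, Tbl1xr1, Tmem65, Tomm20 and Maf, of which Mir5130, Cited2, Cpeb2, Atp2b1, Tbl1xr1 and Maf differed by less than 2-fold from the other untreated library. For Tbl1xr1 and Maf that log2 ratio was -0.20 and -0.11.

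**Figure D5:**
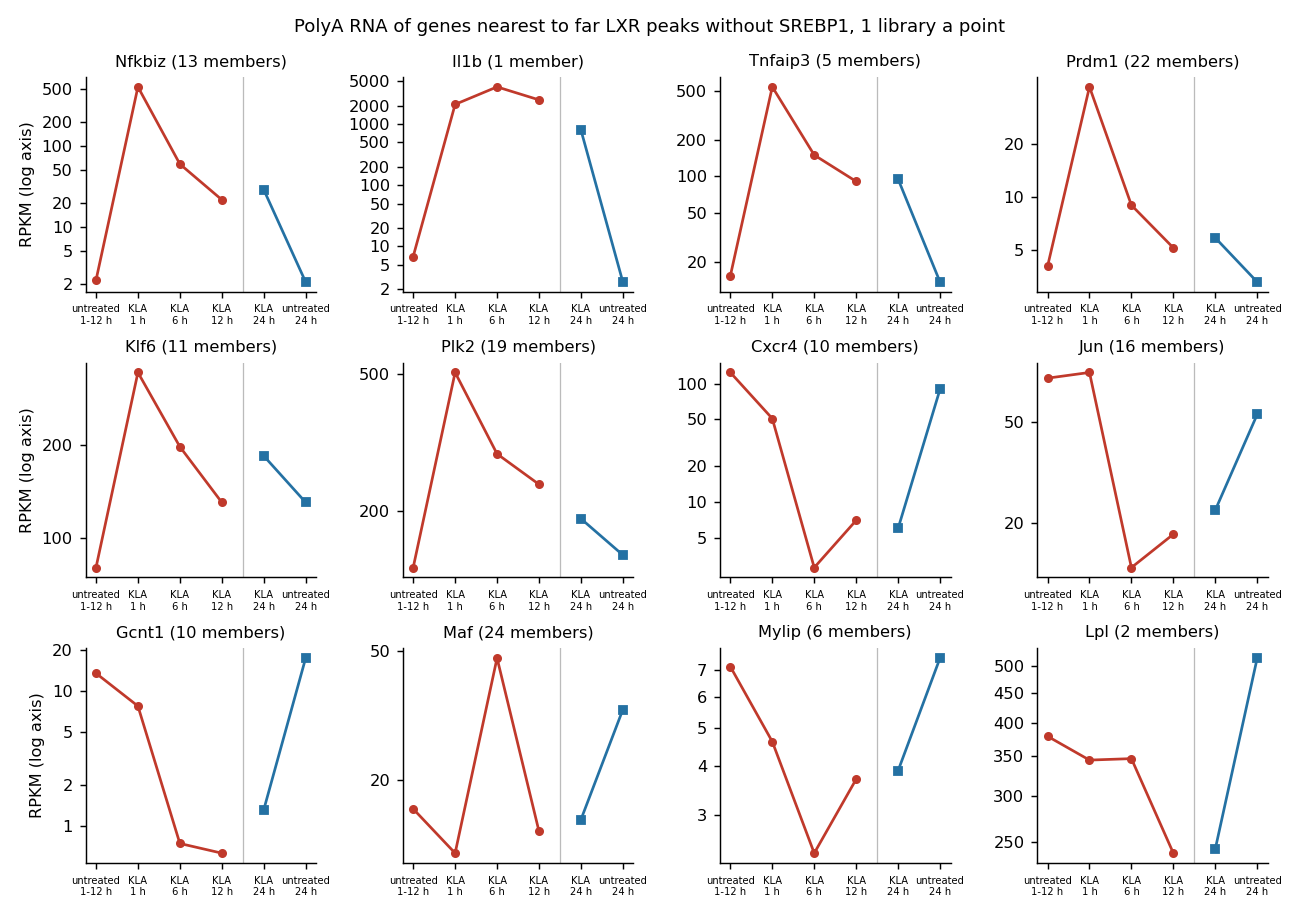
RNA level (RPKM, log axis, its own range in each panel) of 12 genes nearest to far LXR peaks without SREBP1, 1 library a point; red circles are untreated cells and KLA at 1, 6 and 12 h, and blue squares are the 24 h pair of KLA and untreated cells. Nfkbiz stands at 538 RPKM after 1 h of KLA against 2.20 RPKM untreated, and Cxcr4 at 2.79 RPKM after 6 h against 124 RPKM.

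Of the 21 LXR target genes on the list used, 3 were nearest to a member: Mylip, Lpl and Arl4c, with 12 members together. Just 4 of the list were eligible, and 23.1% of all eligible genes were nearest to a member. Mylip, whose product degrades the LDL receptor, had 6 members, and the highest, at chr13:45537755-45537939, had 287 tags and was 318-fold over input. Another Mylip member, 78.0 kb upstream, lay 1.05 kb from an SREBP1 centre. Lpl, which encodes lipoprotein lipase, had members at 57.2 and 73.7 kb with normalised tag counts of 107 and 383, and the second lay 1.65 kb from an SREBP1 centre. Arl4c, a small GTPase, had 4 members at 55.5 to 70.5 kb.

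Under KLA none of the 3 LXR targets was called higher. Of the 18 LXR targets on the list that were expressed, 1, 2, 2 and 3 were called higher and 0, 4, 3 and 1 lower at 1, 6, 12 and 24 h, so most were called neither way. Mylip had 7.15 RPKM untreated and 4.61, 2.40 and 3.70 RPKM at 1, 6 and 12 h, and 3.89 RPKM after 24 h of KLA against 7.52 RPKM untreated. At 6 h it was 2.97-fold lower (1.68 to 5.53). Lpl had 379 RPKM untreated and 345, 347 and 239 RPKM at 1, 6 and 12 h, and 243 RPKM after 24 h of KLA against 516 RPKM untreated, 2.12-fold lower at 24 h (2.02 to 2.22). All KLA values of both genes were below both untreated ones. The log2 ratios of Lpl at 1, 6, 12 and 24 h were -0.13, -0.13, -0.66 and -1.08. Those of Mylip were -0.54, -1.26, -0.79 and -0.80. The medians over all genes tested were -0.16, -0.46, -0.32 and -0.09, so Lpl was not below the median at 1 and 6 h. Arl4c was called lower at 6 h, at 2.23 RPKM against 6.40 RPKM untreated. At 24 h it had 13.5 RPKM against 7.90 RPKM untreated, 1.71-fold higher and so not called. The 6 h values of Mylip and Arl4c and the 24 h value of Lpl fell below 2-fold once shifted by the median of all genes, at log2 -0.80, -0.74 and -0.99.

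Of 21 inflammatory genes, 4 were nearest to a member: Il1b, Il12b, Nfkbiz and Tnfaip3, with 21 members, and 4 of the list were eligible. All 4 were called higher at every KLA time, as were 20 or 21 of the 21 on the whole list, so the members do not set these 4 apart. Il1b, which encodes interleukin 1 beta, had a single low member 60.4 kb upstream, with 11 tags, a normalised tag count of 14.7 and 4.87-fold enrichment over input. Its RNA was 6.84 RPKM untreated and 2095, 4048 and 2485 RPKM at 1, 6 and 12 h, and 801 RPKM after 24 h of KLA against 2.62 RPKM untreated. Tnfaip3, which encodes A20, an inhibitor of NF-κB signalling, had 5 members, the highest at 132, which lay 0.412 kb from an SREBP1 centre. Tnfaip3 RNA was 15.3 RPKM untreated and 544, 150 and 91.1 RPKM at 1, 6 and 12 h, and 95.1 RPKM after 24 h of KLA against 13.6 RPKM untreated. Il12b, which encodes the p40 subunit of interleukin 12 and interleukin 23, had 2 members and no read in either untreated library. It had 92, 333 and 147 reads at 1, 6 and 12 h and 39 after 24 h of KLA, at least 103-fold higher at 6 h against a floor of 3 reads a library.

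Of 25 macrophage regulators, 11 were nearest to a member, with 85 members together: Maf, Irf8, Irf4, Runx1, Klf4, Klf6, Bach1, Pparg, Zeb2, Atf3 and Ets2. Of this list 15 genes were eligible. At 1, 6, 12 and 24 h, 2, 3, 1 and 3 of the 11 were called higher and 0, 2, 2 and 3 lower. Of the 24 expressed genes on the whole list, 6, 4, 2 and 4 were called higher and 1, 7, 6 and 5 lower. Maf had 24 members, 2 of them upstream, and Klf4 had 23, all upstream at 59.0 to 589 kb. Maf, a transcription factor of macrophage differentiation, had 16.3 RPKM untreated and 11.9, 47.6 and 13.9 RPKM at 1, 6 and 12 h, and 15.1 RPKM after 24 h of KLA against 33.0 RPKM untreated. The 2 untreated libraries differed for Maf nearly as much as its 24 h pair did, and against the other untreated library its 6 h log2 ratio was 0.51 and not 1.49. Klf4 had 2.24 RPKM untreated and 2.60, 3.74 and 1.88 RPKM at 1, 6 and 12 h, and 11.2 RPKM after 24 h of KLA against 3.94 RPKM untreated.

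Irf8, a factor of the myeloid lineage, had 4 members within 50.2 to 88.5 kb downstream, the nearest at 199. Irf8 RNA was 46.2 RPKM untreated and 23.0, 83.2 and 82.7 RPKM at 1, 6 and 12 h, and 117 RPKM after 24 h of KLA against 47.0 RPKM untreated. It was lower at 1 h and higher afterwards. Pparg, a lipid-sensing nuclear receptor with 1 member 53.9 kb upstream, had 64.1 RPKM untreated and 70.2, 5.01 and 2.77 RPKM at 1, 6 and 12 h, and 3.59 RPKM after 24 h of KLA against 64.0 RPKM untreated. Bach1 was lower at 6, 12 and 24 h, with 7.21 RPKM after 24 h of KLA against 27.4 RPKM untreated. Ets2 was higher at all times, with 31.8 RPKM at 1 h against 6.12 RPKM untreated. Zeb2, with 14 members, and Atf3, with 3, were within 2-fold at every time on the log2(RPKM + 1) scale, as were Runx1 and Irf4. Atf3, a stress-induced repressor, stood at 337 RPKM in untreated cells already.

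The highest and lowest ratios at each time included the following genes. Edn1, which encodes endothelin 1, had 6 members at 52.4 to 93.6 kb. Edn1 RNA was 0.194 RPKM untreated, resting on 1 read, and 4.80, 244 and 76.9 RPKM at 1, 6 and 12 h, and 27.9 RPKM after 24 h of KLA against 0.660 RPKM untreated. Inhba, the beta A subunit of activin, had 5 members and 0.297 RPKM untreated, and 1.09, 40.0 and 66.1 RPKM at 1, 6 and 12 h. After 24 h of KLA it had 93.7 RPKM against 0.506 RPKM untreated, a ratio of 185 (50.9 to 1535) on 383 against 2 reads. Mamdc2, with 4 members upstream at 63.2 to 87.6 kb, had 241 RPKM untreated and 207, 78.3 and 11.8 RPKM at 1, 6 and 12 h, and 4.15 RPKM after 24 h of KLA against 263 RPKM untreated, 63.4-fold lower (45.8 to 90.2). Fam198b, with 5 members, was 55.8-fold lower at 24 h (33.6 to 100), and Gadd45g, a stress-response gene with 4, was 7.79-fold lower at 1 h (5.34 to 11.7). These genes were taken as the 3 highest and 3 lowest ratios at each time, so their size is a result of that choice.

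The members lay beside genes of every expression level. Tmsb4x, which encodes the actin-binding thymosin beta 4, had 1 member at 69.0 kb and 7229 RPKM in untreated cells. Spp1, or osteopontin, had 1 member at 54.3 kb upstream and 1800 RPKM. Itm2b had 3 members, one of them at 257, and 1569 RPKM. At the other end, Zfpm1, beside the highest member, had 0.884 to 1.37 RPKM in all 6 libraries, resting on 8 to 11 reads, and Enpp6 and 9130015L21Rik were listed at 0 in all 6.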

How the data were processed

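Peak lists were made with HOMER on mouse build mm9, per the file headers, at a false discovery rate of 0.001, at least 4-fold over input and over the surrounding 10000 bases, from 7501248 LXR and 24395376 SREBP1 tags. The normalised tag count is a signal the authors scaled to 10000000 tags. Tag counts, fold over input and over local background (a ratio), p-values, the peak score and the focus ratio (a fraction) are the authors' deposited values per peak. p-values and scores were not printed. Cells were cross-linked in 2 steps (disuccinimidyl glutarate, then formaldehyde) and several antibodies were used for each factor, per the labels' protocols. Bowtie 0.12.7, STAR and HOMER are named in the submitters' processing notes. RPKM of 33022 transcripts were deposited by the authors in 1 table, and their strand use is not stated by any label or header.

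Classes used peak centres: promoter within 1 kb of a start, then inside a transcript, far beyond 50 kb, near otherwise. Shared means at least 1 base. The nearest gene is that of the nearest transcript start, a statement of position only. The transcript with the highest mean RPKM stood for its gene, and genes with at least 1 RPKM in 2 of 6 libraries were tested. Log2 ratios used a pseudocount of 1, which understates changes of low genes, and folds of single genes are plain RPKM ratios. Whole reads were recovered from RPKM, transcript length and library total (100% whole within 0.01 read over single-copy transcripts), and their 95% exact conditional binomial intervals, like the floor of 3 reads, cover counting error only. With 1 library or list a condition no p-value was possible, and the count test on recovered reads was not run. KLA at 1, 6 and 12 h was set against 1 untreated library, so those comparisons share a control, and KLA at 24 h against the other.

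Named genes were those nearest to the 10 highest members, of the 5 largest runs, nearest to most members, with the 3 highest and 3 lowest ratios at each time, with the 5 highest RPKM values, and every nearest gene of the 3 lists (52 genes). Members, lists and rules were chosen with earlier results of these data known. Scripts were tested on simulated data. The peak sequences are not printed, since the genome at hand was of another build. Python 3.11.15, pandas 2.3.3 and scipy 1.17.1 were used.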

Additional observations from a re-analysis of the deposited data

How the results depend on the processing

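The number of members follows the rule: it was 7197 beyond 25 kb, 2035 beyond 100 kb, 2256 with LXR peaks at or above the median height of the list, and 8751 when the starts and spans of expressed transcripts alone were used, and it stayed within 1.5 times of 4310 under the other 4 alternatives. The median height was 26.7 without members that had an SREBP1 centre within 5000 bases and 28.0 under the other 3. The share with SREBP1 within 10 kb was 27.4% among members at or above the median height. Runs of 3 or more numbered 487 to 514. Nearest genes higher at 1, 6, 12 and 24 h stayed within 1.5 times under all 7 alternatives. Genes lower at 1 h, 2.37% against 4.09% of all genes, numbered 45 with a pseudocount of 0.1 (5.60% against 8.30%), 10 with 3 (1.25% against 1.20%), 10 once shifted by the median (1.25% against 2.49%), 41 against the other untreated library (5.11% against 4.95%) and 30 with the nearest tested gene (2.51% against 4.09%), so their share was no longer below that of all genes under 2 of these. Genes lower at 6 h numbered 116 with a pseudocount of 3 (14.4% against 12.9%) and 103 once shifted (12.8% against 9.83%), and their share was below that of all genes with a pseudocount of 0.1 (28.8% against 30.7%) and with the nearest tested gene (21.2% against 22.4%). Genes lower at 12 h numbered 102 with a pseudocount of 3 (12.7% against 8.68%), 104 once shifted (13.0% against 8.73%), and 268 against the other library (33.4% against 20.3%). The 11 of 45 genes with 10 or more members higher at 1 h became 18 of 88 with the nearest tested gene (more genes) and 7 of 32 with members within 200 kb alone (fewer genes), 9 to 12 of 45 under 4 others, and 12 of 78 (15.4%, against 24.4%) for genes with 5 or more members at or above the median height, all chosen after seeing the data. For single genes the Mir5130 ratio at 1 h reversed to -1.14 against the other untreated library, on 2 against 5 reads. No paired analysis was possible because each condition has 1 library. Causes were not tested. Depth limits genes under about 1 RPKM, where 1 read in 1 kb is worth 0.374 to 0.453 RPKM.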

Other observations

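Of the 70 genes nearest to 10 or more members, 25 were not expressed by the rule used, and they held 344 members. The nearest expressed gene gives another view of these groups, as positions only. All 26 members of 1700016G22Rik lay 56.7 to 516 kb from the start of Klf6, which is 3.40 kb from that of 1700016G22Rik. Together with the 11 members that name Klf6 itself, they surround a gene that stood at 343 RPKM after 1 h of KLA against 79.9 RPKM untreated. All 26 members of Gm17746 lay 93.2 to 421 kb from the start of Id2, an inhibitor of basic helix-loop-helix factors, which had 399 RPKM after 1 h of KLA against 156 RPKM untreated. The 13 members of H2afy3 had Myc as their nearest expressed gene, at 326 to 516 kb, with 61.6 RPKM after 1 h of KLA against 6.82 RPKM untreated. The 10 members of 4930459C07Rik nearest to Btg1, an antiproliferative gene, lay 200 to 337 kb from it, and Btg1 had 139 RPKM after 1 h of KLA against 21.6 RPKM untreated. Its other 5 members were nearest to Eea1, at a log2 ratio of 0.07 at 1 h. Most nearest expressed genes of the 25 groups were within 2-fold at 1 h, such as Irf2 (0.31), Jarid2 (0.12) and Rnaseh2b (-0.16). Plk2, Snx18 and Cited2 were also higher and Gadd45g was lower, so early rises are not typical of these groups.

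Another such group lay beside a gene that was lower later. All 23 members of Mir21c lay 134 to 559 kb from Nrp1, a co-receptor for semaphorins and VEGF, which had 10.2 RPKM after 24 h of KLA against 77.2 RPKM untreated. Lmo4, a LIM-domain cofactor and the nearest expressed gene of the 10 members of Gm6260, went the other way, with 214 RPKM after 24 h of KLA against 26.5 RPKM untreated. These genes were picked after their values were seen.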
